A study of Mus musculus with 29 samples.

Results

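Genes of the sine oculis homeobox (Six2 to Six5), Eya and Dach families, which form a network, were examined for binding of transcription factors (TFs) in mouse NIH-3T3 fibroblasts, an established line. The 9 genes are Six2, Six3, Six4, Six5, Eya1, Eya2, Eya3, Eya4 and Dach1, of 21938 protein-coding genes in the annotation. They were chosen by name, and each peak that shared at least 1 bp with the gene body or the 50 kb on either side of it was counted as lying in the gene's window. A window can therefore also hold peaks of neighbouring genes, which are named where they occur.

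The data are 28 lists of ChIP-seq peaks, which are regions where chromatin precipitated with an antibody was enriched in sequencing. Every line carried a doxycycline-inducible TF fused to an HA tag, introduced by lentivirus into cells that constitutively express the rtTA3G activator. Doxycycline was given at 500 ng/ml overnight, cells were fixed with 1% formaldehyde, and the antibody was anti-HA. There are 24 constructs. The wild-type factors were BHLHB8, BRACHYURY, CDX2, DLX1, DLX6, DUXBL, EBF1, FOXA1, HLF, MAX, NANOG, OCT4, PRR3, RHOX11, SIX6, SOX15, SOX2, TEAD1, THAP4, TOX3 and ZFP319, and the other 3 constructs were the FOXA1_RR and FOXA1_SW mutants and OCT4-HA expressed together with SOX2-YPET. Duplicate lists exist for SOX2-HA, OCT4-HA, BHLHB8-HA and FOXA1-HA, and every other construct, SIX6-HA included, has 1 list. Binding of an overexpressed, tagged factor is what was measured, and binding of the untagged proteins that the cells make themselves was not.

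The network is named for 3 protein families that act together. Sine oculis homeobox proteins bind DNA through a homeodomain and a conserved domain beside it, EYA proteins do not bind DNA themselves but join them as coactivators with phosphatase activity, and DACH proteins are cofactors related to the SKI and SNO corepressors. The network is best known from the fly eye and, in vertebrates, from eye, ear, kidney and muscle development. SIX6 is a factor of the developing retina, hypothalamus and pituitary and a close relative of SIX3.

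The 28 lists held between 52 and 61991 peaks, and the number of reads behind them is unknown. Some libraries stood apart. BHLHB8-HA replicate 2 held 54 of the 182 peaks in the 9 windows, against 28 in replicate 1, a ratio of 1.93 where the ratio over the genome was 1.32. The list of OCT4-HA with SOX2-YPET overlapped BHLHB8-HA replicate 2 at 32.2% of its peaks and replicate 1 at 5.17%, and its part in the counts below was not tested. High overlap as such was not particular to that list, since SIX6-HA overlapped replicate 2 at 52.2% of its peaks and replicate 1 at 69.1%. The order was the reverse, however. ZFP319-HA, CDX2-HA, DUXBL-HA, DLX1-HA, DLX6-HA and SOX2-HA replicate 1 also overlapped BHLHB8-HA replicate 1 more than replicate 2. TEAD1-HA was the only other list compared that overlapped replicate 2 more, at 27.3% against 18.7%. What lies behind the 32.2% and 5.17% was not tested. All 9 genes kept a peak without either BHLHB8-HA list, and also without BHLHB8-HA and TEAD1-HA together, when 82 peaks were left.

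SIX6-HA had a peak at 1 of the 9 genes, Eya3, and none at Six2, Six3, Six4, Six5, Eya1, Eya2, Eya4 or Dach1. Of 21938 protein-coding genes, 27.8% had a SIX6-HA peak in a window drawn the same way. The single peak was 1 of 6075 in the list, or 0.0165% (95% exact interval 0.000417 to 0.0917). At its density over the known genome the list would have placed 4.42 peaks in the windows, which is within the exact Poisson interval of a count of 1 (0.0253 to 5.57). A difference from the genome-wide density was thus not detectable at this number of peaks. With 20 kb in place of 50 kb on either side, or with peaks of at least 300 bp only, 0 of the 9 genes had a SIX6-HA peak.

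The share was also set against those of the other constructs. The other 23 constructs placed 0.0335% ± 0.0350 (SD, n = 23) of their peaks in the windows, so that SIX6-HA lay 0.0170 percentage points below their mean (exact two-sided permutation test over constructs, p = 0.667). The smallest p this design allows is 0.0417. Shares were lower than that of SIX6-HA in 9 constructs, all at 0 and with lists of at most 2635 peaks, and higher in 14, so SIX6-HA was the lowest of the 15 constructs with a peak in the windows. At genome density the longest of those 9 lists, that of HLF-HA, would have placed 1.92 peaks in the windows. Shares of 0 were thus likely for short lists, and the test does not correct for list length. FOXA1-HA and its mutants, and OCT4-HA with and without SOX2-YPET, also counted as separate constructs. Among constructs with at least 3000 peaks, a limit chosen after seeing the data, the difference was -0.0385 percentage points (n = 15, exact two-sided permutation test, p = 0.2). Without a duplicate, the error of the SIX6-HA value itself is unknown.

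**Figure D1:**
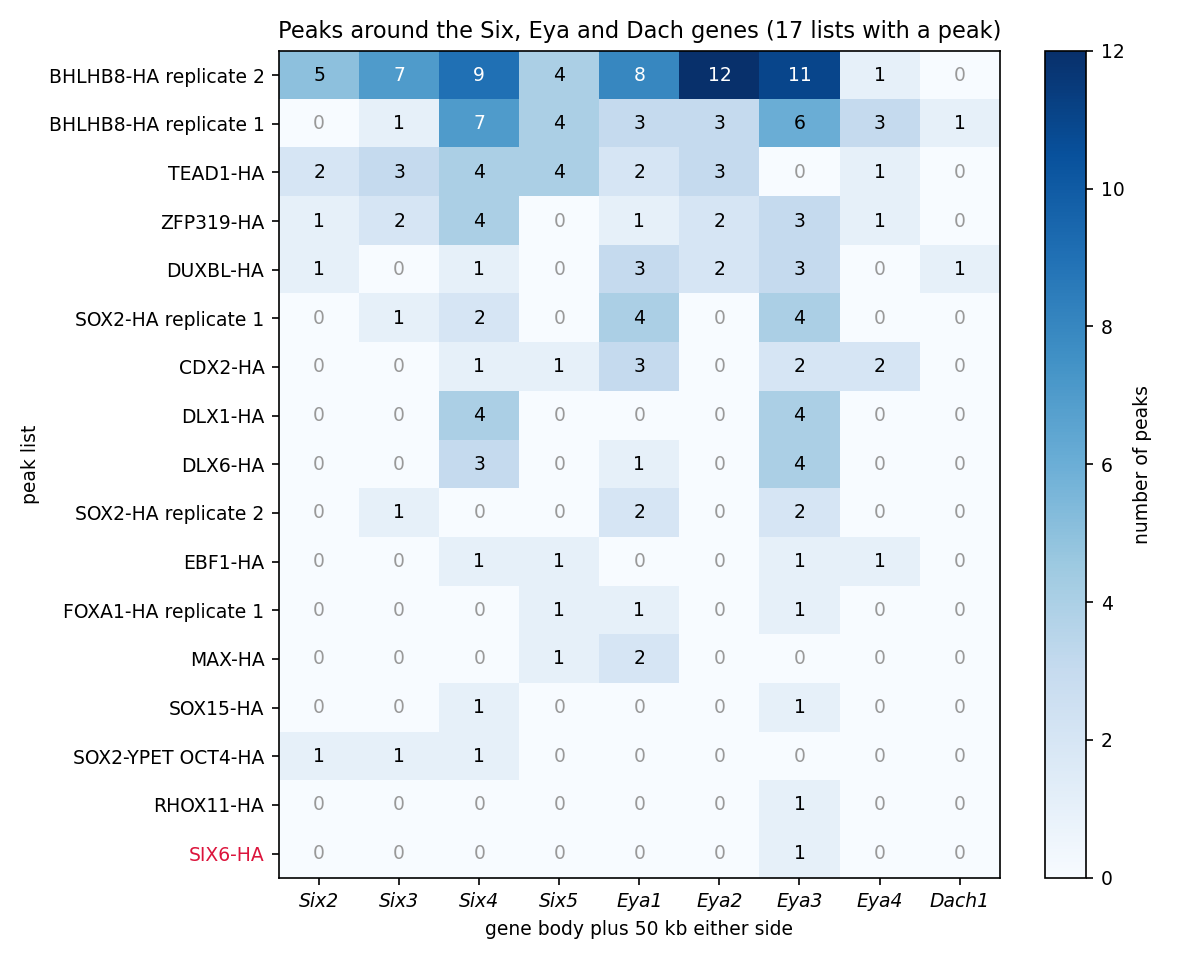
Number of peaks (colour and digits) in the body of each gene plus 50 kb either side (columns) for the 17 lists with at least 1 such peak (rows, most peaks at the top). SIX6-HA, in red, had 1 peak, at Eya3, while BHLHB8-HA replicate 2 had 54 in the 9 windows.

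The SIX6-HA peak at Eya3 lay at chr4:132599745-132600010 (GRCm38), 266 bp long, between genes and 39.0 kb upstream of the gene body. The nearest start site of a coding gene was that of Ptafr, which encodes the receptor of platelet-activating factor, 35.8 kb away. Peaks of 5 other constructs touched it, namely BHLHB8-HA and SOX2-HA in both of their lists, DLX1-HA, DLX6-HA and SOX15-HA. With 6 constructs this was the most widely shared of all sites in the windows. Its sequence is printed because it is the only SIX6-HA peak in the 9 windows, and that of the next shared site upstream of Eya3 because it holds a SIX3 and SIX6 sequence and no SIX6-HA peak. That site, at chr4:132610597-132611147 and 28.1 kb from the start site, held peaks of CDX2-HA, DLX1-HA, DLX6-HA, DUXBL-HA and both SOX2-HA lists. Letters are from RefSeq GRCm38.p6, plus strand, with the whole peak for SIX6-HA (chr4:132599745-132600010) and 200 bp (chr4:132610881-132611080) for the other site. Capitals mark matches on either strand to TGACTCA, the sequence of the AP-1 factors, in the first and to TGATAC, a sequence bound by SIX3 and SIX6, in the second.
Eya3, SIX6-HA peak: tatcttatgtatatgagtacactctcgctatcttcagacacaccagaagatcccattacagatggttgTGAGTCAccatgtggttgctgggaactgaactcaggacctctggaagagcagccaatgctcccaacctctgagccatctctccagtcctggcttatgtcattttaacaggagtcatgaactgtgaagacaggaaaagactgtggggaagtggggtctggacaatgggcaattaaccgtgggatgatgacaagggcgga
Eya3, shared upstream site: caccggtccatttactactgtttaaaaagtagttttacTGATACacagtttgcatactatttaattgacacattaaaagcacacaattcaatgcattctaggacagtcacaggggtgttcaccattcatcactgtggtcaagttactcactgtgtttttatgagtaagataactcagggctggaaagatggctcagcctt

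The SIX6-HA peak held neither TGATAC nor TCAGGTT, the MEF3 core bound by SIX2, SIX4 and SIX5. RefSeq soft-masked 60.5% of its bases as repeats, the AP-1 match among them. Over all 6075 SIX6-HA peaks, the central 200 bp held TGATAC in 13.0% (95% exact interval 12.2 to 13.9), against 5.11% of all merged sites and 3.88% of promoters (the first 200 bp of each RefSeq promoter window). TCAGGTT was present in 2.60% of SIX6-HA peaks, 2.66% of merged sites and 2.85% of promoters. TGACTCA was present in 26.6%, 9.81% and 3.61%. It was not particular to SIX6-HA, being in 28.9% of SOX2-HA replicate 1 peaks and 14.4% of BHLHB8-HA replicate 1 peaks, though in 1.42% of TEAD1-HA peaks. So in the whole list TGATAC and TGACTCA were more frequent than in promoters and TCAGGTT was not, while the single peak at Eya3 held only the AP-1 sequence. Intervals cover counting error over peaks only.

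TGATAC and TCAGGTT were present in every window, and none lay under a SIX6-HA peak. That follows from the only SIX6-HA peak there, of 266 bp, which held neither, and is no separate result. TGATAC occurred 687 times in the 9 windows, 8 of them under a peak of any list, and TCAGGTT occurred 332 times, 5 of them under a peak. The occurrences of TGATAC under peaks were at Eya3 (3), Eya1 (2), Eya2 (2) and Six4 (1), and DUXBL-HA, a double homeobox factor, covered 4 of the 8. Dach1 held 212 of the TGATAC occurrences and Eya4 175, and none of these were under a peak. The Dach1 window held 2 peaks and the Eya4 window 9. What share of the window bases lay under peaks was not computed. Whether these sequences were covered less often than other bases is therefore unknown. A match is a description of the letters and not of binding.

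The nearest SIX6-HA peak was far from most of the genes. The gap from the gene body was 39.0 kb at Eya3, 50.3 kb at Six5, 113 kb at Eya2, 158 kb at Six4, 261 kb at Six2, 320 kb at Six3, 654 kb at Eya1, 732 kb at Eya4 and 1707 kb at Dach1. The median of the 9 genes was 261 kb, against 155 kb over all coding genes (quartiles 41.2 and 450 kb), and 6 of the 9 lay above that median. Six5 fell just outside the 50 kb limit, with a SIX6-HA peak at chr7:19148826-19149359 over the promoter of Qpctl, a glutaminyl cyclase gene. The peak nearest to Eya2 lay over the Zmynd8 promoter, and the one nearest to Dach1 in an intron of Klf12. The band from 40 to 50 kb around the 9 genes held 18 peaks of all lists and no SIX6-HA peak, and that from 50 to 60 kb held 29 peaks with 1 of SIX6-HA.

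**Figure D2:**
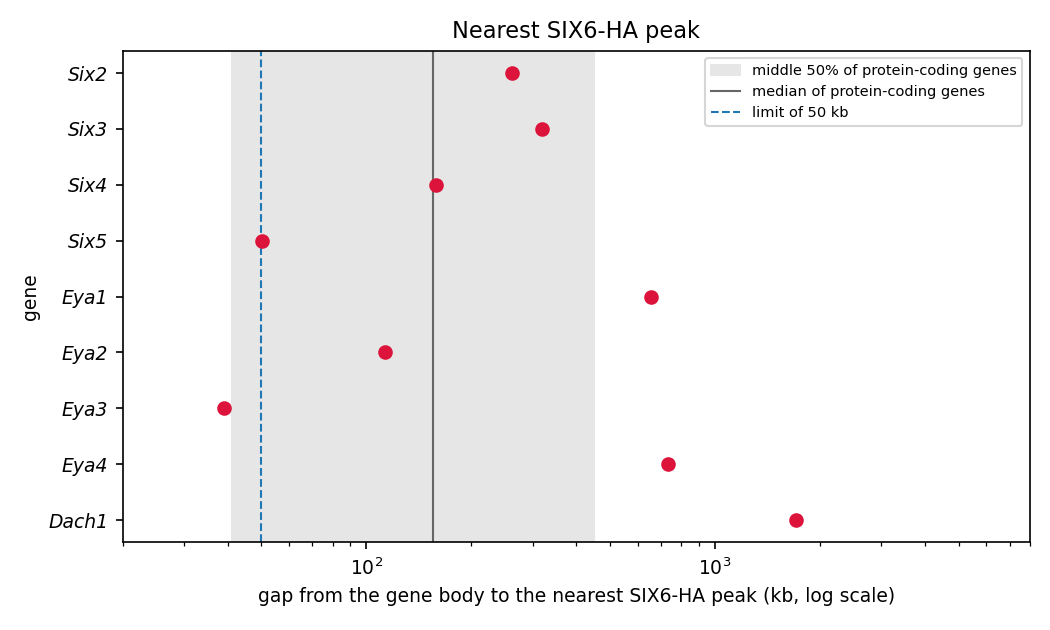
Gap from the body of each gene to the nearest SIX6-HA peak (kb, log scale), 1 point per gene, with the middle 50% (grey band) and median (grey line) of all coding genes and the 50 kb limit (dashed line). Eya3 at 39.0 kb is the only point left of the limit, Six5 at 50.3 kb lies just right of it, and Dach1 at 1707 kb is farthest.

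The nearest peak of SIX6-HA to Six4 lay over its own gene, Six6, at chr12:72940164-72941655. No other list had a peak there. It was 1492 bp long and covered 493 of the 4009 exon bases of Six6, and the start of the neighbouring gene 4930447C04Rik lay 0.135 kb from its middle. The SIX6-HA line also carries the coding sequence of Six6 in its construct. Whether reads from the construct contributed to this peak was not tested.

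All 9 genes had a peak of some construct in their window, as had 92.7% of coding genes. Peaks in the windows merged into 118 sites, or 61.2 per Mb, close to the 63.6 per Mb over the known genome. Gene by gene, the median was 96.2 sites per Mb for the 9 windows. Over windows of all coding genes it was 88.3 (quartiles 41.0 and 134). The pooled value is lower because the long windows of Eya4 and Dach1 held few sites. Of these sites 98 (83.1%, 95% exact interval 75.0 to 89.3) held peaks of 1 construct, where the share over the genome was 76.3%. Sites of 5 or more constructs numbered 3 (2.54%, against 5.60% over the genome). No site held peaks of 10 or more constructs, a class that made up 0.431% of sites over the genome. Of the 98 sites of a single construct, 46 belonged to BHLHB8-HA, 13 to TEAD1-HA, 12 to ZFP319-HA, 10 to DUXBL-HA and 7 to CDX2-HA. Only 7 of the 46 held peaks of both BHLHB8-HA lists. These are the longest lists, with 46842 and 61991 peaks. The share of each construct among such sites over the genome was not computed, so these counts are not a trait of the 9 genes. Most sites lay away from promoters: 44 were between genes and 36 in an intron of a member gene. Within 1 kb of any coding start site lay 17 of the 118 sites, 8 of them at a member gene. The share of promoter sites over the genome was not computed. The nearest coding start site was that of a member gene at 85 sites and that of another gene at 33.

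**Figure D3:**
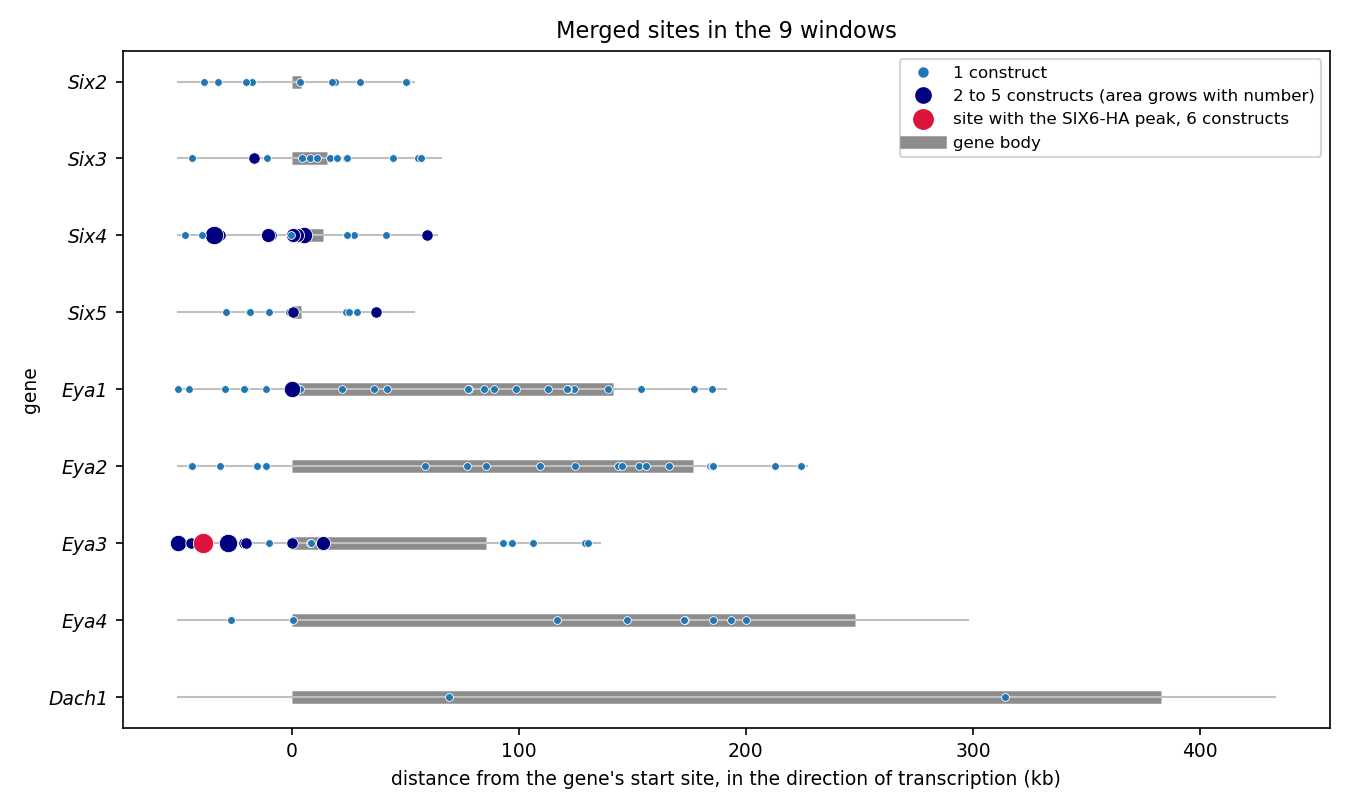
Merged sites (points) by distance from the start site in the direction of transcription (kb), 1 row per gene, with the gene body as a thick bar and the window as a thin line. Point area grows with the number of constructs. The larger points lie upstream of Eya3, around the start of Six4 and at the start of Eya1, and Dach1 has 2 sites.

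Six2, which keeps nephron progenitors of the kidney undifferentiated, and Six3, a gene of forebrain and eye field formation, lie side by side, and their windows shared 45.0 kb and 5 peaks. Six2 had 10 peaks at 10 sites, 5 of them from BHLHB8-HA replicate 2, 2 from TEAD1-HA, and 1 each from ZFP319-HA, DUXBL-HA and OCT4-HA with SOX2-YPET. Its 10 sites each held 1 construct, and none lay at its promoter. Six3 had 16 peaks at 13 sites, 7 from BHLHB8-HA replicate 2, 3 from TEAD1-HA and 2 from ZFP319-HA. Only 1 Six3 site was shared, at chr17:85596898-85597366 and 16.5 kb upstream, where BHLHB8-HA and SOX2-HA had a peak in both lists each. It is printed as a site found in both lists of 2 factors, with no other construct there. The line gives 200 bp (chr17:85596986-85597185), with CAGCTG, an E-box bound by BHLHB8 and other basic helix-loop-helix factors, in capitals.
Six3, shared upstream site: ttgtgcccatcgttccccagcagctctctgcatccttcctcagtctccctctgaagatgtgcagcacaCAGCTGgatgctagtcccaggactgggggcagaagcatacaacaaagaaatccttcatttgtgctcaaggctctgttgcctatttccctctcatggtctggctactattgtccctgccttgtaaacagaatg

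Six4, a gene of muscle and placode development, had the highest density of sites of the 9 genes at 132 per Mb, above 73.8% of coding genes. It had 38 peaks at 15 sites from 11 constructs. BHLHB8-HA gave 7 and 9 peaks in its lists, DLX1-HA, TEAD1-HA and ZFP319-HA gave 4 each, and DLX6-HA 3. A site over the Six4 promoter (chr12:73112386-73113132) held BHLHB8-HA in both lists, DLX1-HA and TEAD1-HA, and EBF1-HA had a peak just upstream of it, also within 1 kb. Another site, at chr12:73107931-73108335 in an untranslated region of the gene and 5.32 kb from its start site, held 4 constructs and TGATAC. The window also holds Mnat1, which encodes a subunit of the CDK-activating kinase, and 9 of the 15 sites were nearer to a start site other than that of Six4. The site with most constructs was one of these, at chr12:73147091-73147778 in an intron of Mnat1 and 34.0 kb upstream of Six4, with BHLHB8-HA in both lists, DLX1-HA, DLX6-HA, SOX15-HA and SOX2-HA replicate 1. It is printed as the most shared site around Six2, Six3, Six4 or Six5, over 200 bp (chr12:73147290-73147489), with CAGCTG and TGACTCA in capitals.
Six4, shared upstream site: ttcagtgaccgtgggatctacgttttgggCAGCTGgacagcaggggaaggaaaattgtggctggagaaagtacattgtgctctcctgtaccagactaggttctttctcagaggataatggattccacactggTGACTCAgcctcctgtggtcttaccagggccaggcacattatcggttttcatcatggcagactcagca

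Six5, which lies beside Dmpk at the myotonic dystrophy locus, had 16 peaks at 10 sites in a window with 7 other coding genes. At its own promoter (chr7:19094694-19095388) BHLHB8-HA had a peak in both lists and TEAD1-HA had 1. Of the 10 sites, 8 were nearest to the start site of another gene, and 7 lay at a promoter, of Dmwd, Dmpk, Gm4969 or Fbxo46 in addition to Six5. The counts were 4 in each BHLHB8-HA list and 4 for TEAD1-HA, and 1 each for CDX2-HA, EBF1-HA, FOXA1-HA replicate 1 and MAX-HA.

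The 4 Eya genes differed in number and in sharing of sites. Eya1, the gene of branchio-oto-renal syndrome, had 30 peaks at 24 sites, and every one of these was nearest to its own start site. Its most shared site was the start site itself (chr1:14309475-14310486), with BHLHB8-HA and SOX2-HA in both lists, FOXA1-HA replicate 1 and MAX-HA, the dimerization partner of MYC. The other 23 sites held 1 construct each, and 11 lay in introns. SOX2-HA had 4 and 2 peaks at Eya1 in its lists, and both lists also had a peak over a coding exon at chr1:14273870-14274315.

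Eya2, a coactivator gene of muscle precursors, had 22 peaks at 20 sites from 4 constructs, the fewest constructs of the Eya genes. BHLHB8-HA gave 3 and 12 of them in its lists, TEAD1-HA gave 3, and DUXBL-HA and ZFP319-HA gave 2 each. Each site held 1 construct and none lay at the Eya2 promoter. Without BHLHB8-HA replicate 2 the number of peaks fell from 22 to 10. BHLHB8-HA had a peak in both lists at chr2:165747870-165748289 in an Eya2 intron and at chr2:165779032-165779546 downstream. Of the 20 sites 6 were nearest to the start site of Zmynd8, the neighbouring gene, which encodes a chromatin reader.

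Eya3, a phosphatase and coactivator gene of the same family, had the most peaks and constructs, with 44 peaks at 20 sites from 12 of 24 constructs. BHLHB8-HA gave 6 and 11, SOX2-HA 4 and 2, DLX1-HA and DLX6-HA 4 each, DUXBL-HA and ZFP319-HA 3 each, CDX2-HA 2, and EBF1-HA, FOXA1-HA replicate 1, RHOX11-HA, SIX6-HA and SOX15-HA 1 each. TEAD1-HA had no peak at Eya3, though it had peaks at 7 of the other 8 genes. Of the 20 sites, 9 lay upstream, including the SIX6-HA site and the second site printed above. The Eya3 promoter (chr4:132638939-132639760) held BHLHB8-HA replicate 2 and RHOX11-HA, and a site in an intron (chr4:132652686-132653180) held BHLHB8-HA in both lists, CDX2-HA and SOX2-HA replicate 1. By density Eya3 had 108 sites per Mb, Eya1 99.5 and Eya2 72.3. Of the 20 Eya3 sites 10 were nearest to the start site of another gene, Ptafr upstream or Xkr8, Smpdl3b or Rpa2 downstream, with sites over the promoters of Xkr8 and Rpa2.

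Eya4, a gene of hereditary deafness, had 9 peaks at 9 sites, or 25.9 per Mb, above 17.4% of coding genes. BHLHB8-HA had 3 and 1 peaks, CDX2-HA had 2, and EBF1-HA, TEAD1-HA and ZFP319-HA had 1 each. TEAD1-HA, the partner of YAP in Hippo signalling, was the construct at its promoter (chr10:23350055-23350638). No Eya4 site was found in both BHLHB8-HA lists.

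Dach1, which encodes a transcriptional cofactor, had the lowest density, with 2 peaks in a window of 483 kb, or 4.14 sites per Mb, above 7.38% of coding genes. Both lay in introns, 1 of DUXBL-HA at chr14:98100446-98100750, 69.2 kb from the start site, and 1 of BHLHB8-HA replicate 1 at chr14:97855505-97855675, 314 kb from it. The BHLHB8-HA peak was not in replicate 2. Both are printed because they are the whole record of Dach1, the first as its central 200 bp (chr14:98100499-98100698), and neither holds any of the sequences named above, so no letter is in capitals.
Dach1, DUXBL-HA peak: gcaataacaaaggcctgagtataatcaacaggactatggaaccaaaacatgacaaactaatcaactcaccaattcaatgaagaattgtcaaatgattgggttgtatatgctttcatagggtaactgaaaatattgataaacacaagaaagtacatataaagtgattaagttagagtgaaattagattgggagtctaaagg
Dach1, BHLHB8-HA peak: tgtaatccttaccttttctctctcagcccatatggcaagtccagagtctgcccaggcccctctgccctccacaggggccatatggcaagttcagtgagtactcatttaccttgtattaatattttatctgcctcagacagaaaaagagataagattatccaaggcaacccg

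Constructs differed in how many of the 9 genes they reached, and each number is given beside the share of all coding genes that the same list reached. The windows of the 9 genes are longer than those of coding genes in general, with a median of 185.8 kb against 117.4 kb, so these shares are not matched for length. BHLHB8-HA had a peak at 8 genes in replicate 1 (77.2% of coding genes) and 8 in replicate 2 (84.4%). TEAD1-HA and ZFP319-HA reached 7 each, against 68.8% and 59.4% of coding genes. DUXBL-HA reached 6 (64.2%), CDX2-HA 5 (56.4%), SOX2-HA 4 in replicate 1 (57.3%) and 3 in replicate 2 (25.6%), EBF1-HA 4 (38.8%), and FOXA1-HA replicate 1 reached 3 (27.5%). The homeodomain factors DLX1-HA and DLX6-HA reached 2 (60.5%) and 3 (53.1%), with 8 peaks each, 7 of those of DLX6-HA and 8 of those of DLX1-HA at Six4 and Eya3. MAX-HA reached 2 (23%), SOX15-HA 2 (22%), RHOX11-HA 1 (34.3%) and OCT4-HA with SOX2-YPET 3 (15.9%), the last with 2 peaks since 1 of them lay in both the Six2 and the Six3 window.

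By share of the list, TEAD1-HA was highest, with 18 of 14959 peaks in the windows (0.120%, 95% exact interval 0.0713 to 0.190), where the windows make up 0.0728% of the known genome. It was followed by ZFP319-HA, a zinc finger protein, with 14 of 14645 (0.0956%, 0.0523 to 0.160), SOX2-HA replicate 2 with 5 of 5692 (0.0878%, 0.0285 to 0.205) and BHLHB8-HA replicate 2 (0.0871%, 0.0654 to 0.114), and these intervals overlap. CDX2-HA, with the longest list after those of BHLHB8-HA, had 9 of 25278 (0.0356%, 0.0163 to 0.0676). The interval of TEAD1-HA reached down to the share of the genome, and that of CDX2-HA lay below it. No peak was present in 11 lists, those of 9 constructs and FOXA1-HA replicate 2. A peak is rare around coding genes in these lists too: 15.6% had one for HLF-HA, 10.1% for TOX3-HA, 6.66% for FOXA1-HA replicate 2, 3.92% for BRACHYURY-HA, 1.82% for NANOG-HA, 0.921% for FOXA1_RR-HA, 0.884% for FOXA1_SW-HA, 0.725% and 0.351% for the OCT4-HA lists, 0.451% for PRR3-HA and 0.447% for THAP4-HA. The longest of them, HLF-HA, had 0 of 2635 peaks in the windows, where 3 peaks would be 0.114% and the upper limit of the 95% exact interval is 0.140%. The shortest list with a peak there had 3836. A difference between these lists and the longer ones was not detectable at such numbers.

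**Figure D4:**
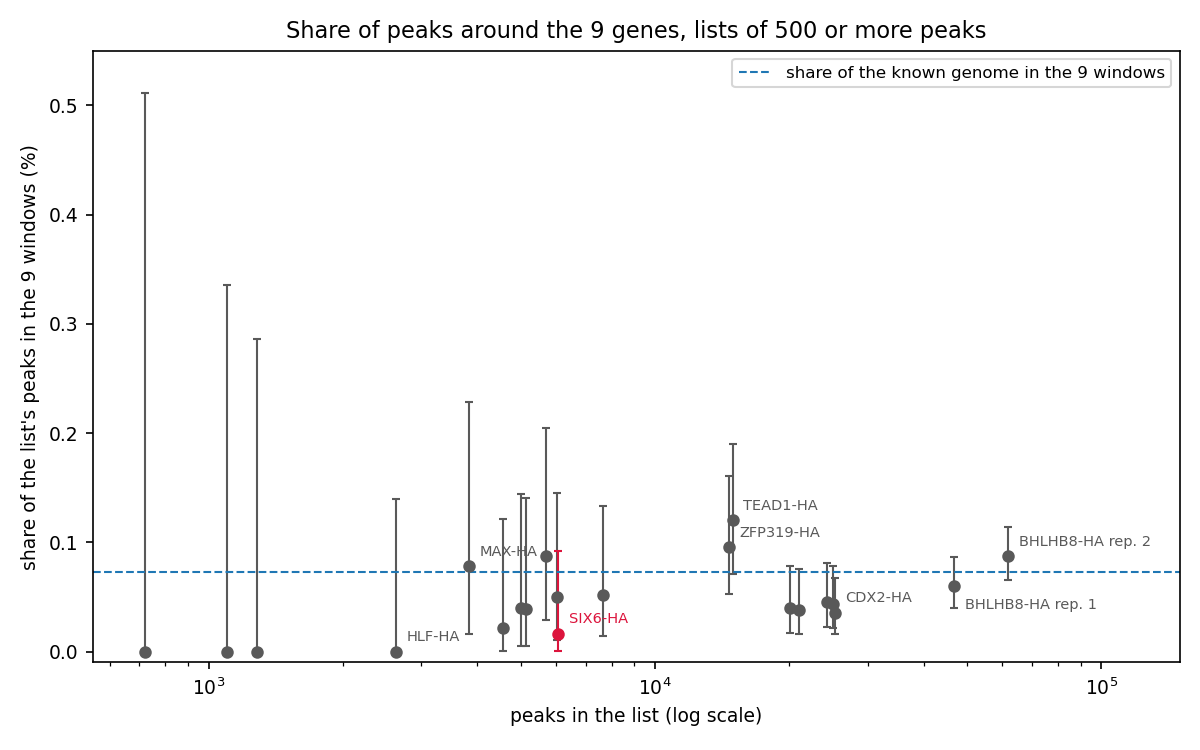
Share of each list's peaks in the 9 windows (%, points with 95% exact intervals that cover counting error only) against the number of peaks in the list (log scale), for lists of 500 or more peaks. The dashed line is the share of the known genome in the windows, 0.0728%. SIX6-HA (red) lies at 0.0165% with an interval that reaches above the line, and TEAD1-HA is highest at 0.120%.

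The duplicates show how far single lists repeat at these genes. For BHLHB8-HA 37 of 82 peaks in the windows (45.1%, 95% exact interval 34.1 to 56.5) overlapped a peak of the other list, as did 45.3% over the genome. The 37 are 19 peaks of replicate 1 and 18 of replicate 2, so shared locations count from both sides. The intervals, also that of SOX2-HA, treat these paired counts as independent and are too narrow. For SOX2-HA 10 of 16 did (62.5%, 35.4 to 84.8), where the share over the genome was 34.3%. These shares pool the peaks of both lists, so a difference in list length limits them. For SOX2-HA the ratio of replicate 2 to replicate 1 peaks was 0.455 in the windows and 0.227 over the genome. The 62.5% and 34.3% therefore do not compare like with like. All 5 SOX2-HA replicate 2 peaks in the windows were in replicate 1. FOXA1-HA had 3 peaks in replicate 1 and none in replicate 2, and OCT4-HA had none in either. CAGCTG was in the central 200 bp of 35.7% of the BHLHB8-HA replicate 1 peaks in the windows and 35.2% of those of replicate 2, near the 37.8% and 35.1% of the whole lists. The shares were above the 19.9% of all merged sites and the 10.3% of promoters. The 95% exact interval of replicate 1 in the windows, 18.6 to 55.9%, included the share of merged sites.

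Other genes tied to the network were counted in the same way. SIX6-HA had a peak at 7 of 21, where 27.8% of coding genes had one. All 21 had a peak of some list, as had 92.7% of coding genes. These shares are not matched for window length. Among the TLE corepressors, which SIX3 and SIX6 are known to recruit, 3 of 4 had a SIX6-HA peak, at the Tle1 promoter, 21.0 kb upstream of Tle3 and in an intron of Tle4. The windows of Tle1, Tle3 and Tle4 were 184, 146 and 250 kb long, against a median of 117.4 kb for coding genes. That of Tle2, without a SIX6-HA peak, was 116 kb long. Of the kidney genes 2 of 4 did, Gdnf with 3 peaks, the nearest 0.973 kb upstream of its start site, and Wt1 with 1 peak 17.5 kb upstream. Of the muscle genes 1 of 3 did, Myod1, with a peak 38.8 kb upstream. No SIX6-HA peak was found at the 5 Pax genes (Pax2, Pax3, Pax6, Pax7, Pax8), at the eye field genes Rax, Lhx2 and Otx2, or at Dach2. Six6, 1 of the 7, had the peak described above, where reads from the construct may count. The Tle3 peak lay at a site of 11 constructs, that at Tle1 at a site of 5, and that at Tle4 at a site of 2. Those at Gdnf, Myod1 and Wt1 lay at sites of 5 or 6.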

How the data were processed

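Anti-HA ChIP-seq peak lists of 28 samples were used, and the input sample was not. Per the study's methods, the authors aligned 37 nt paired-end reads to mm10 with STAR 2.5.3a, removed duplicates with Picard, called peaks for each sample with MACS2 2.1.1.20160309, and left out any that touched input peaks or the ENCODE blacklist. The deposited values are chromosome, start and end, with no score or read number, so depth is unknown and differences in depth were not corrected. Peaks that overlap input are missing, which can empty a region in every list.

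Genes were taken from GENCODE vM21 (GRCm38), and sequence from RefSeq GRCm38.p6. Coordinates count from 1. Peaks of all lists that overlapped were merged into sites. A promoter is within 1 kb of a coding start site. Groups and replicate numbers came from the labels. The share of SIX6-HA was compared with the 23 other constructs, duplicates as their mean, by an exact two-sided permutation test, and all other values are descriptions. Intervals are 95% exact (Clopper-Pearson, or Poisson for counts). The members, the gene lists and the sequences searched were chosen with earlier results of these data known. All 9 members are named; sites named are the SIX6-HA peaks and the most shared site of each gene, and other sites, sequences and CAGCTG were chosen after their values were seen. All 6 simulated lists returned the planted number of peaks. Python 3.11.15, NumPy 2.4.6, SciPy 1.17.1 and Matplotlib 3.10.9 were used. Some genes of the gene lists are not reported here and were left out of the counts.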

Additional observations from a re-analysis of the deposited data

How the results depend on the processing

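Of 62 values recomputed for 9 results, 9 moved by more than the limit set for them and 53 did not. The SIX6-HA share stayed below the mean of the other constructs under every alternative, with p between 0.2 and 0.864 (exact two-sided permutation test). With the gene body only, 20 kb either side or peaks of at least 300 bp, SIX6-HA had no peak. The direction was fixed in advance there. Leaving out replicate 1 or 2 of the duplicated factors gave -0.0175 and -0.0165 percentage points. The number of genes with a SIX6-HA peak was 0 with the gene body only, 0 with 20 kb either side, 2 with 100 kb, and 0 with peaks of at least 300 bp, so the call at Eya3 rests on a short peak far from the gene. The number of sites was 48 in gene bodies only, 60 with peaks of at least 300 bp, and 57 without both BHLHB8-HA lists and TEAD1-HA (an alternative chosen after seeing the data), and 89 to 107 without replicate 1 or 2. With a threshold of 5 constructs in place of 10, 3 sites were shared. With a reciprocal overlap of 50% the share of BHLHB8-HA peaks in both lists was 31.7%. All 9 genes had a peak under every alternative run. No paired analysis was possible because SIX6-HA has 1 list and shares no pair of replicate numbers with another construct. The lists carry no depth, so a missing peak cannot be told apart from a shallow library.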
